A study of Mus musculus with 10 samples.

Results

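The receptors described here are T cell receptor beta (TRB) chains that use a J gene of the TRBJ2 cluster, namely TRBJ2-1, TRBJ2-2, TRBJ2-3, TRBJ2-4, TRBJ2-5 or TRBJ2-7. They were chosen as table entries that carry the name of one of these 6 genes and whose CDR3 amino acid sequence ends as these genes encode. The rule took 132147 of 192864 TRB entries (68.5%) and 182532 of 266140 TRB counts, out of 387286 entries in all. TRBJ2-7 gave 38047 entries, TRBJ2-5 gave 24692, TRBJ2-4 gave 22760, TRBJ2-1 gave 20164, TRBJ2-3 gave 15594 and TRBJ2-2 gave 10890. The tables listed every entry under TRBV and TRBJ names although the protocol also amplified alpha chains, and 63231 of the 195378 entries named for these genes were left out, 6700 because they end as TRBJ1-6 encodes and 56531 because they end in another way. Of the entries kept, 132072 carried the end of the very gene they were named for and 75 the end of another TRBJ2 gene.

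The study sequenced T cell receptor transcripts of regulatory T (Treg) cells taken from mouse spleen and used without further treatment. There were 5 CNS4KO samples, labelled as the knockout, and 5 CNS4Flox samples, labelled as the wild type; CNS4 is an element that enhances transcription of Foxp3, which encodes the defining factor of Treg cells, and it is lost in the first group and flanked by loxP sites in the other. Neither Foxp3 nor the deletion can be checked in receptor libraries. Age, further alleles and any Cre driver were not given in the labels, and RNA of a bulk sample cannot tell more cells of a clone from more transcripts per cell. The labels do not say whether replicates are separate mice, so p-values measure the spread between these samples.

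A beta chain is built by joining a D gene to a J gene and then a V gene to the DJ piece. At each joint, nucleases trim the gene ends and terminal transferase adds bases that no gene encodes, so the CDR3, the loop that reads the peptide, is set by the choice of genes, by trimming and by insertion. The mouse locus holds the D and J genes as a pair of clusters, TRBD1 with the TRBJ1 genes and TRBD2 with the TRBJ2 genes, and TRBD2 lies downstream of the TRBJ1 genes. TRBJ2-6 is a pseudogene.

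The 6 genes lie on chromosome 6 between base 41542754, where TRBJ2-1 starts, and base 41543856, where TRBJ2-7 ends (GRCm38.p6 coordinates of the RefSeq annotation, the assembly of mm10). The stretch of each gene that reaches the CDR3 is given next, 5′ to 3′, because all values on trimming count bases lost from its left end. Capitals mark bases of the J gene, and each stretch is the most common sequence among deposited clonotypes with an untrimmed J.

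TRBJ2-1: TAACTATGCTGAGCAGTTCTTC
TRBJ2-2: CAAACACCGGGCAGCTCTACTTT
TRBJ2-3: AGTGCAGAAACGCTGTATTTT
TRBJ2-4: AGTCAAAACACCTTGTACTTT
TRBJ2-5: AACCAAGACACCCAGTACTTT
TRBJ2-7: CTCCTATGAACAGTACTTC

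These stretches are 22, 23, 21, 21, 21 and 19 bases long in the order printed. Each is 28 bases shorter than the gene in the RefSeq annotation, as is the stretch of each of the 5 TRBJ1 genes that could be measured. TRBJ2-7 thus brings the fewest germline bases to the CDR3 and TRBJ2-2 the most.

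Libraries held 19183 to 34803 TRB counts, of which 13351 to 23718 were of the TRBJ2 cluster, and 9507 to 17194 distinct TRBJ2 clonotypes (V gene, J gene and CDR3 nucleotides). CNS4KO replicate 5 and CNS4Flox replicate 3 stood apart from all other pairs: they shared 557 TRBJ2 nucleotide clonotypes, against 67 to 174 (median 113.5) in the other 44 pairs, and values of clone size and sharing are also given without them. Intervals cover counting error only, because nothing says if a count stands for a read or for a molecule.

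TRBJ2-7 was the most and TRBJ2-2 the least used gene of the cluster in both groups, and no share passed the test of a difference between them. The TRBJ2 cluster held 68.1% ± 1.65 of TRB counts in CNS4KO samples and 69.0% ± 1.24 in CNS4Flox samples (SD, n = 5 each), and 68.1% ± 0.593 against 68.7% ± 1.19 of distinct clonotypes. TRBJ2-7 took 18.81%, 18.62%, 20.06%, 21.09% and 19.6% of distinct TRB clonotypes in CNS4KO replicates 1 to 5, against 19.2%, 19.88%, 20.92%, 19.03% and 19.04% in CNS4Flox replicates 1 to 5, so that the groups overlap. TRBJ2-5 followed with 12.70% ± 0.166 in CNS4KO and 12.87% ± 0.200 in CNS4Flox samples, then TRBJ2-4 with 11.7% ± 0.321 and 11.9% ± 0.552. TRBJ2-1 took 10.47% ± 0.219 in CNS4KO and 10.42% ± 0.377 in CNS4Flox samples, TRBJ2-3 took 8.07% ± 0.729 and 8.15% ± 0.317, and TRBJ2-2, the least used, 5.60% ± 0.398 and 5.74% ± 0.337. For all 6 genes the 2 groups overlap.

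**Figure D1:**
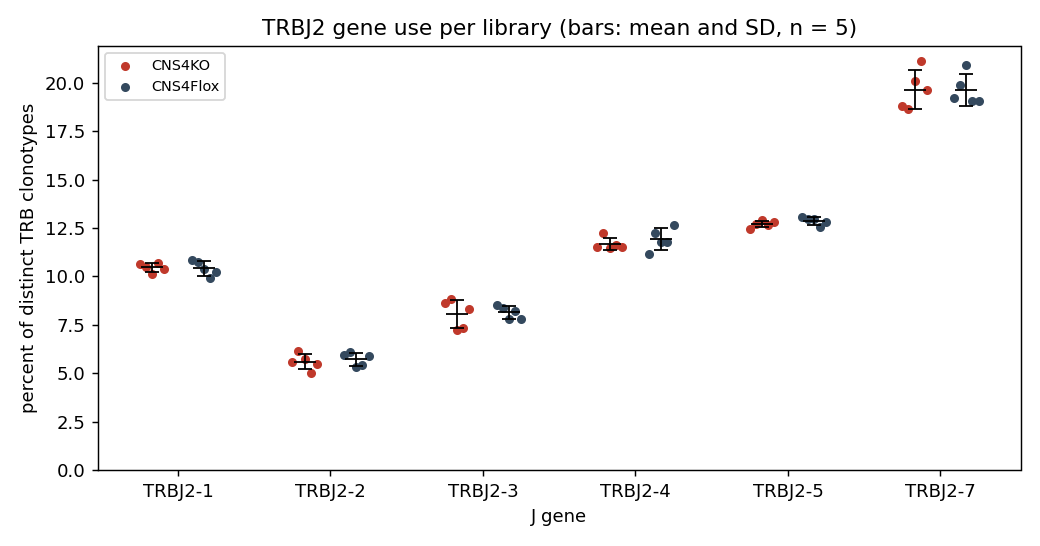
Percent of the distinct TRB clonotypes of each library (y axis) that use each TRBJ2 gene (x axis); points are libraries, CNS4KO left of CNS4Flox, and bars are mean and SD over 5 libraries. TRBJ2-7 is the highest and TRBJ2-2 the lowest gene in every library, and the groups overlap for every gene.

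edgeR's quasi-likelihood test over the 12 TRBJ genes called none between CNS4KO and CNS4Flox samples, either by counts (0% called; 1 gene, TRBJ1-6, at an unadjusted p under 0.05) or by distinct clonotypes (0% called; 0 at an unadjusted p under 0.05). By clonotypes the TRBJ2 log2 fold changes ran between -0.04 for TRBJ2-2 (SE 0.05) and 0.0068 for TRBJ2-1 (SE 0.03), with a lowest adjusted p of 0.897. By counts they ran between -0.05 for TRBJ2-4 (SE 0.04) and 0.06 for TRBJ2-1 (SE 0.04), with a lowest adjusted p of 0.648. DESeq2 called 0 of the 6 genes by either value. The counts of TRBJ2-2 were 7.20% of TRB counts in CNS4KO replicate 2 and 4.50% to 5.63% in the other CNS4KO libraries, against 5.29% to 5.99% in CNS4Flox libraries.

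The 6 J genes lost different numbers of bases. TRBJ2-7 lost the most, 3.47 ± 0.0484 bases per clonotype (SD over 10 libraries), then TRBJ2-1 with 3.34 ± 0.0404, TRBJ2-5 with 3.07 ± 0.0467, TRBJ2-4 with 2.47 ± 0.0577, TRBJ2-2 with 2.17 ± 0.0654 and TRBJ2-3 with 1.54 ± 0.0487. Each gene in this order was above the next in 10 of 10 libraries, so no neighbours overlap within a library. The closest neighbours were TRBJ2-7 and TRBJ2-1, which differed by 0.128 ± 0.0556 bases. The match that the tables report for J was hardly ever under 12 bases (32 of 132147 entries), and 13.4% ± 0.556 of TRBJ2-7 clonotypes sat at or under that floor, against at most 0.575% for each of the other 5 genes. The mean of TRBJ2-7 is therefore a lower bound of its trimming.

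TRBJ2-3, TRBJ2-4 and TRBJ2-2 were most often left whole. No base was missing from 43.3% ± 1.09 of TRBJ2-3 clonotypes, 34.2% ± 1.15 of TRBJ2-4, 27.0% ± 1.25 of TRBJ2-2, 21.0% ± 0.685 of TRBJ2-5, 20.2% ± 0.776 of TRBJ2-7 and 12.9% ± 0.514 of TRBJ2-1 clonotypes. The shape of the loss differed as well. In TRBJ2-3 the share fell steeply, with 20.1% ± 1.14 missing 1 base. TRBJ2-7 had a second peak at 4 bases, with 24.1% ± 0.899 of clonotypes there, and few missing 1 base (3.75% ± 0.172). TRBJ2-1 was most often short of 3 bases (20.5% ± 1.10) and rarely of 2 (6.64% ± 0.378), and TRBJ2-5 had peaks at 2 bases (16.7% ± 0.546) and at 6 (15.3% ± 0.914). A TRBJ2-7 stretch short of 4 bases lacks the CTCC of the sequence printed above. Inserted or D bases that happen to equal the J gene count as J, which lowers the count of bases lost.

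**Figure D2:**
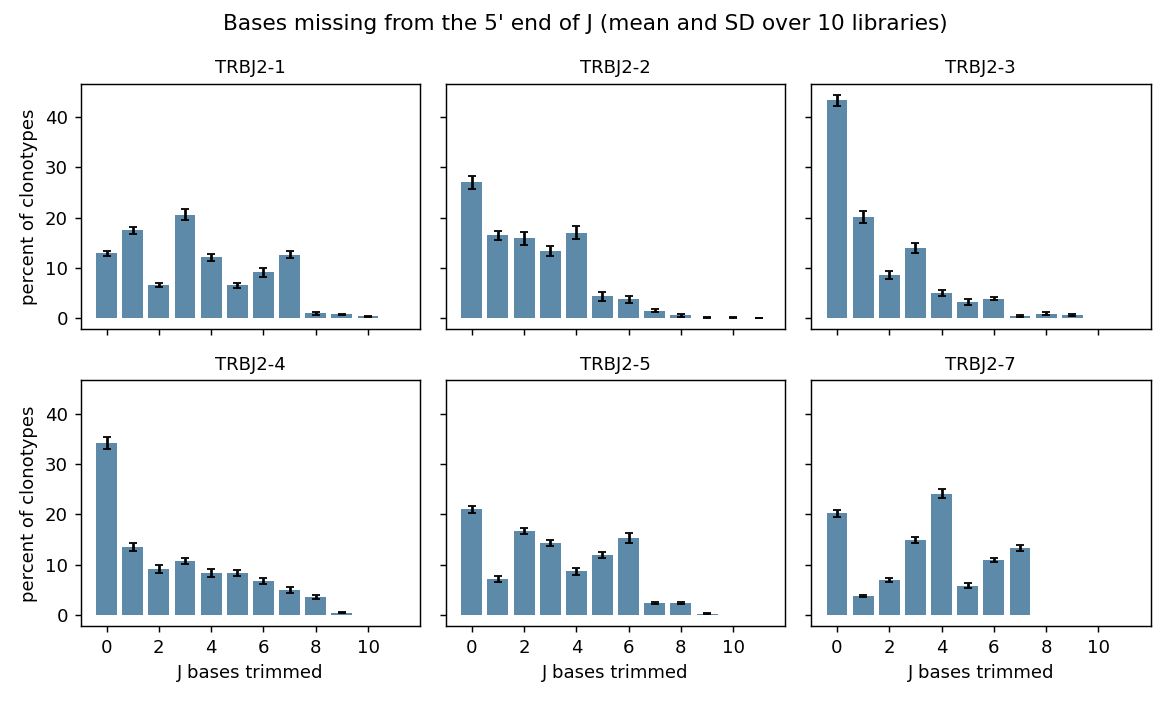
Share of distinct clonotypes (y axis, percent) by number of bases missing from the 5′ end of the J gene (x axis) for each TRBJ2 gene; bars are means and whiskers SD over 10 libraries. TRBJ2-3 has 43.3% of clonotypes with an untrimmed J, whereas TRBJ2-7 has peaks at 0 and 4 bases and a last bar at 7 bases, where the shortest J match allowed by the tables lies.

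Set against the mean of the other TRBJ genes in the same library, trimming was higher in 10 of 10 libraries for TRBJ2-7 (by 0.981 ± 0.0470 bases), TRBJ2-1 (by 0.840 ± 0.0410) and TRBJ2-5 (by 0.544 ± 0.0572). It was lower in 10 of 10 libraries for TRBJ2-3 (-1.14 ± 0.0523), TRBJ2-2 (-0.445 ± 0.0678) and TRBJ2-4 (-0.124 ± 0.0610). All 6 had an adjusted p of 0.00215 in the exact sign-flip permutation test (two-sided, 1024 sign flips), and so did the 5 TRBJ1 genes measured pass it (100% of 11 called), so that differing from the mean is common to the J genes. The call for TRBJ2-4 was lost when clonotypes with a single count were left out (-0.0617 bases, adjusted p = 0.326 in the same exact test).

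TRBJ2-2 receptors were the longest, at 14.38 ± 0.0437 residues, then TRBJ2-3 at 14.19 ± 0.0371, TRBJ2-1 at 14.07 ± 0.0374, TRBJ2-4 at 13.82 ± 0.0543 and TRBJ2-5 at 13.73 ± 0.0206, and TRBJ2-7 receptors were the shortest, at 13.24 ± 0.0404 (SD, 10 libraries). The order held in every library except that TRBJ2-4 was above TRBJ2-5 in 9 of 10. Against the mean of the other 11 genes, TRBJ2-2 was longer by 0.632 ± 0.0363 residues and TRBJ2-7 shorter, with a difference of -0.618 ± 0.0334, each in 10 of 10 libraries (adjusted p = 0.00213, exact sign-flip permutation test). TRBJ2-4 did not pass (0.0216 ± 0.0517, higher in 7 of 10 libraries, adjusted p = 0.232 in the exact test), and 91.7% of the 12 genes did.

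The bases that the tables assign to no gene numbered 3.55 ± 0.0424 per clonotype in TRBJ2-7, 3.50 ± 0.0544 in TRBJ2-3, 3.46 ± 0.0539 in TRBJ2-1, 3.46 ± 0.0555 in TRBJ2-5, 3.39 ± 0.0659 in TRBJ2-4 and 3.11 ± 0.0543 in TRBJ2-2. TRBJ2-1 and TRBJ2-5 do not differ beyond their spread (0.00343 ± 0.0488, higher in TRBJ2-1 in 3 of 10 libraries). TRBJ2-2 lay 0.282 ± 0.0934 under its neighbour TRBJ2-4 in 10 of 10 libraries. Against the mean of the other 10 genes measured, 5 of the TRBJ2 genes were higher and TRBJ2-2 lower (-0.233 ± 0.0558, adjusted p = 0.00358, exact sign-flip permutation test), and 100% of the 11 genes passed. The deposited positions leave at least 1 base between D and J in every entry with a D, and exactly 1 in 51.3% of them, so the counts of inserted bases may be too high and only comparisons are read from them.

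TRBD2 was called far more often beside TRBJ2 genes than beside TRBJ1 genes. Over all D-assigned clonotypes the TRBD2 share was 47.8% ± 0.650 in the TRBJ2 cluster and 8.69% ± 0.373 in the TRBJ1 cluster (SD, 10 libraries), and the lowest TRBJ2 library, at 47.0%, lay above the highest TRBJ1 library, at 9.44%. Where at least 6 bases of D were matched the shares were 63.1% ± 0.882 and 7.01% ± 0.462. Within the TRBJ2 cluster TRBJ2-7 had the highest share, 52.3% ± 1.49, and TRBJ2-2 the lowest, 34.7% ± 1.42. TRBJ2-1 had 49.0% ± 1.18, TRBJ2-5 47.7% ± 0.929, TRBJ2-3 46.8% ± 1.24 and TRBJ2-4 45.9% ± 0.648. Neither TRBJ2-5 and TRBJ2-3 (0.899 ± 1.56 percentage points, higher in TRBJ2-5 in 6 of 10 libraries) nor TRBJ2-3 and TRBJ2-4 (0.856 ± 1.56, higher in TRBJ2-3 in 7 of 10) differ beyond their spread, whereas TRBJ2-5 was above TRBJ2-4 in 10 of 10 libraries (1.755 ± 0.881). TRBJ2-2 stayed lowest with D matches of at least 6 bases (48.0% ± 2.39, against 62.6% to 65.9% in the other 5 genes). Each of the 6 genes was above the mean of the other 11 in 10 of 10 libraries (adjusted p = 0.00195, exact sign-flip permutation test, its smallest possible p). In 1 direction or the other, 100% of the 12 genes passed. The other 11 include the TRBJ1 genes, which lie upstream of TRBD2. The test therefore cannot tell a trait of a single TRBJ2 gene from the gap between the clusters. How much of the 8.69% in the TRBJ1 cluster is miscalled was not tested.

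**Figure D3:**
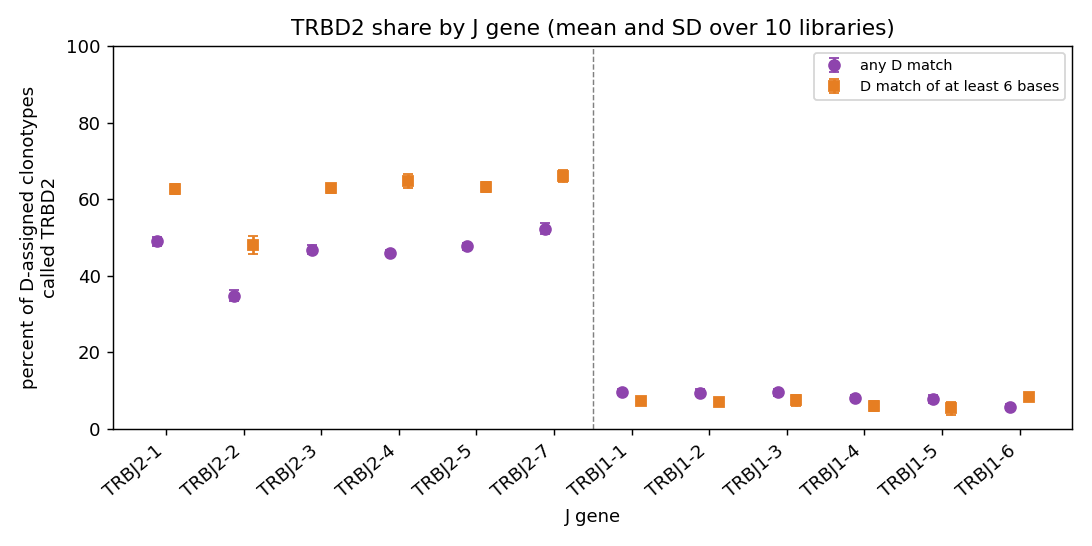
Percent of clonotypes with a D gene that are called TRBD2 (y axis) for each of 12 TRBJ genes (x axis; TRBJ2 left and TRBJ1 right of the dashed line), for any D match (circles) and for matches of at least 6 bases (squares); points and bars are mean and SD over 10 libraries. All TRBJ2 genes lie above all TRBJ1 genes, and TRBJ2-2 is the lowest TRBJ2 gene under both rules.

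None of these junction values passed the test between the groups. TRBJ2-1 kept 18.69 ± 0.0286 J bases in CNS4KO and 18.63 ± 0.0307 in CNS4Flox samples (n = 5 each), with p = 0.0317 before and 0.349 after adjustment in the exact permutation test over the 252 assignments of samples. TRBJ2-3 receptors were 14.21 ± 0.0355 residues long in CNS4KO and 14.17 ± 0.0268 in CNS4Flox samples (exact adjusted p = 0.381). Of TRBJ2-7 clonotypes with a D call, 55.3%, 51.2%, 54.0%, 53.7% and 51.3% were called TRBD2 in CNS4KO replicates 1 to 5. The shares were 51.2%, 51.6%, 51.7%, 51.5% and 51.0% in CNS4Flox replicates 1 to 5. Of these, 3 CNS4KO libraries lie above all CNS4Flox libraries, and the groups overlap (exact adjusted p = 0.324). For J bases kept, CDR3 length, inserted bases and TRBD2 share, 0% of the 11 or 12 genes tested passed the threshold.

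TRBV31 was the most frequent V partner of all 6 genes, with 12.97% ± 1.68 of TRBJ2-1, 10.3% ± 1.64 of TRBJ2-2, 12.9% ± 1.77 of TRBJ2-3, 8.77% ± 1.42 of TRBJ2-4, 12.8% ± 2.14 of TRBJ2-5 and 10.5% ± 1.37 of TRBJ2-7 clonotypes, against 11.1% of all TRB clonotypes. To set aside how common each V gene is, the number of clonotypes of a pair was divided by the number expected from the V and J totals of its library. A small constant was added to both numbers, and log2 ratios were averaged over 10 libraries and turned back into a ratio. The ratios given can therefore differ from those of the summed numbers printed beside them. TRBJ2-5 was paired with TRBV14 at 1.44 times the expected number (647 observed, 447.5 expected over 10 libraries; above 1 in 10 of 10 libraries) and with TRBV12-1 at 0.643 times (963 observed, 1484 expected). TRBJ2-4 was paired with TRBV12-2 at 1.39 times (1119 observed, 795 expected) and with TRBV30 at 0.658 times (166 observed, 247.2 expected). TRBJ2-3 had TRBV30 as its highest partner, at 1.37 times (above 1 in 9 of 10 libraries), and TRBV16 as its lowest, at 0.852 times.

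The TRBV12 genes were divided unevenly over the cluster. TRBV12-2 was the lowest partner of TRBJ2-1 (0.611 times, 438 observed and 703.9 expected) and of TRBJ2-7 (0.749 times, 983 observed and 1330 expected), and the highest of TRBJ2-4. TRBV12-1 was the lowest partner of TRBJ2-2 (0.669 times, 432 observed and 653.5 expected) as well as of TRBJ2-5. The highest partners of the remaining genes were TRBV15 for TRBJ2-7 (1.30 times, 2869 observed and 2195 expected, 10 of 10 libraries), TRBV1 for TRBJ2-2 (1.30 times, 821 observed and 628.4 expected, 10 of 10 libraries) and TRBV17 for TRBJ2-1 (1.22 times, 485 observed and 389.1 expected, 9 of 10 libraries). These ratios describe clonotypes that reached the spleen as Treg cells in frame, and whether they were set at joining or later was not tested.

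**Figure D4:**
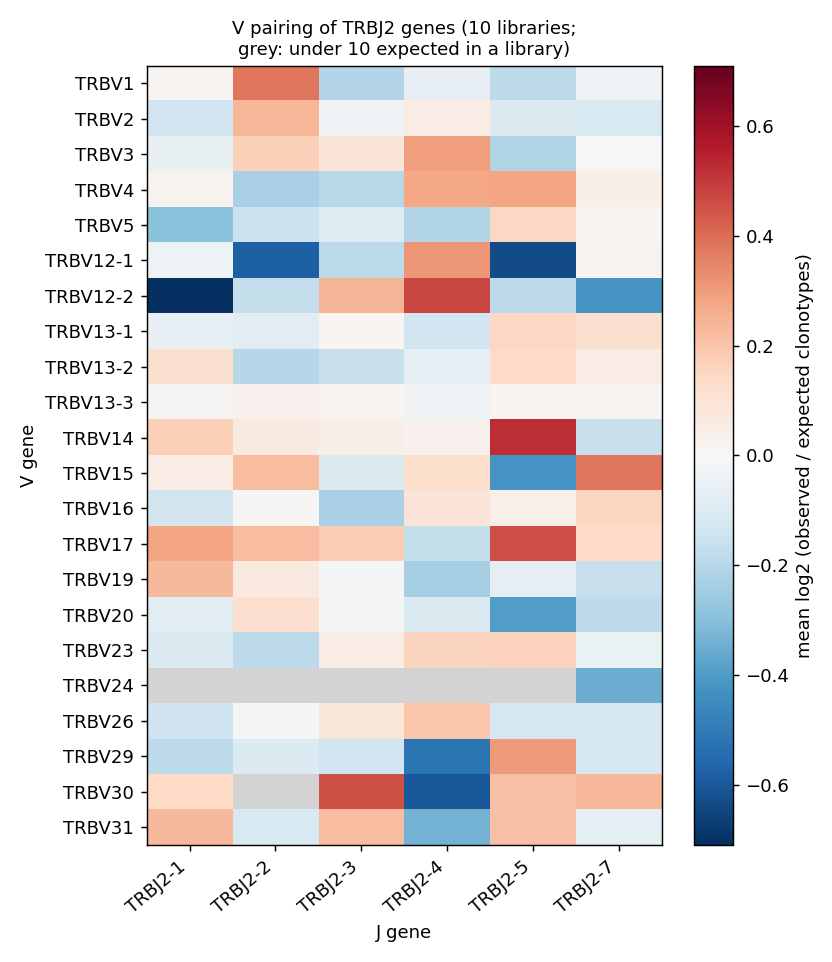
Mean over 10 libraries of log2 observed over expected distinct clonotypes (colour) for each TRBV gene (rows) and TRBJ2 gene (columns), with expected numbers from the V and J totals of each library; grey marks pairs with under 10 expected clonotypes in a library. The lowest field is TRBV12-2 with TRBJ2-1 (-0.71) and the highest TRBV14 with TRBJ2-5 (0.53).

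The V profile of each TRBJ2 gene was closest to that of another TRBJ2 gene. By mean Jensen-Shannon divergence over 10 libraries (log base 2; 0 for equal profiles), TRBJ2-1 and TRBJ2-7 were each other's nearest gene (0.00669 ± 0.00176). TRBJ2-3 (0.00851 ± 0.00262) and TRBJ2-5 (0.00970 ± 0.00276) were nearest to TRBJ2-1, and TRBJ2-4 (0.00950 ± 0.00203) and TRBJ2-2 (0.0101 ± 0.00254) to TRBJ2-7. Likeness did not follow the clusters throughout. For TRBJ2-4 the second nearest gene was TRBJ1-1 (0.0125 ± 0.00222), ahead of TRBJ2-1 (0.0148 ± 0.00315) and TRBJ2-5 (0.0199 ± 0.00426). By mean, TRBJ1-4 was nearer than TRBJ2-4 to TRBJ2-1, TRBJ2-3 and TRBJ2-5. For TRBJ2-2 and TRBJ2-7, every TRBJ2 gene was nearer than every TRBJ1 gene. The farthest gene was TRBJ1-5 for TRBJ2-4 (0.0375 ± 0.0105) and TRBJ1-6 for the other 5 genes (0.0322 to 0.0425). Sampling alone gives larger divergences to genes with fewer clonotypes, and how much of this order it sets was not tested.

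Between the groups, edgeR's quasi-likelihood test on distinct clonotypes called 3 of 249 V-J pairs (1.2%), none of them among the 129 TRBJ2 pairs. Its unadjusted p was under 0.05 for 14 of the 129 TRBJ2 pairs and for 24 of all 249 pairs. DESeq2 called 0 of the TRBJ2 pairs as well. All 3 edgeR calls paired TRBV12-1 with a TRBJ1 gene, namely TRBJ1-1, TRBJ1-3 and TRBJ1-6. Their log2 fold changes were 0.70, 0.58 and 0.60 (SE 0.12, 0.14 and 0.15, edgeR adjusted p = 0.000256, 0.0259 and 0.0259). Over all pairs, 3 were called with DESeq2 and 4 with TMM factors. Only 1 was called by counts, without both libraries of the pair, without CNS4KO replicate 2, or without CNS4Flox replicate 1, 3 or 5. The TRBJ2 pairs with the smallest p also held TRBV12-1. TRBV12-1 with TRBJ2-1 made up 0.780%, 0.806%, 0.572%, 0.767% and 0.681% of distinct TRB clonotypes in CNS4KO replicates 1 to 5, against 0.595%, 0.572%, 0.511%, 0.531% and 0.418% in CNS4Flox replicates 1 to 5. CNS4KO replicate 3 lies within the CNS4Flox range and the other 4 CNS4KO libraries lie above it (log2 fold change 0.45, SE 0.13, edgeR adjusted p = 0.0755).

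TRBV12-1 with TRBJ2-7 made up 1.504%, 1.27%, 1.31%, 1.54% and 1.27% in CNS4KO replicates 1 to 5, against 1.07%, 1.21%, 1.19%, 0.993% and 0.825% in CNS4Flox replicates 1 to 5, without overlap (log2 fold change 0.38, SE 0.12, edgeR adjusted p = 0.162). The pair with TRBJ2-1 passed the threshold with TMM factors (log2 fold change 0.47, edgeR adjusted p = 0.0466) and without CNS4KO replicate 3 (0.52, edgeR adjusted p = 0.0303), while over all 17 alternatives its adjusted p ran between 0.0303 and 0.662. The other TRBJ2 pairs of TRBV12-1, named here after their values were seen, had log2 fold changes of 0.32 (TRBJ2-4, SE 0.11), 0.25 (TRBJ2-5, SE 0.14), 0.11 (TRBJ2-3, SE 0.15) and 0.03 (TRBJ2-2, SE 0.16). Whether the shift of TRBV12-1 differs between J genes was not tested. Over all TRBJ2 pairs the median log2 fold change was -0.05, with 53 pairs above 0 and 76 below, and over all 249 pairs it was -0.04.

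Counts per clonotype set the groups apart, and whether they reflect clone size or the number of cells per library was not tested. With every library brought to 19183 TRB counts (mean of 20 random draws), TRBJ2 receptors of CNS4KO samples held fewer distinct clonotypes and more counts per clonotype than those of CNS4Flox samples, for all 6 genes. TRBJ2-1 had 1.64, 1.39, 1.60, 1.51 and 1.31 counts per clonotype in CNS4KO replicates 1 to 5, against 1.17, 1.21, 1.28, 1.19 and 1.21 in CNS4Flox replicates 1 to 5. Every CNS4KO library lies above every CNS4Flox library, and CNS4KO replicate 5 comes nearest to them. The means were 1.49 ± 0.137 and 1.21 ± 0.0439 (SD, n = 5 each; adjusted p = 0.00952, exact permutation test, two-sided).

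TRBJ2-3 averaged 1.44 ± 0.0882 counts per clonotype in CNS4KO and 1.20 ± 0.0258 in CNS4Flox samples, TRBJ2-4 1.42 ± 0.0926 and 1.21 ± 0.0391, TRBJ2-5 1.40 ± 0.110 and 1.18 ± 0.0331, and TRBJ2-2 1.39 ± 0.150 and 1.18 ± 0.0373, all without overlap between groups (exact adjusted p = 0.00952 for each). TRBJ2-7 had 1.38, 1.39, 1.39, 1.42 and 1.22 in CNS4KO replicates 1 to 5, against 1.14, 1.17, 1.22, 1.17 and 1.16 in CNS4Flox replicates 1 to 5. Its groups overlap through the pair of libraries that shared the most clonotypes, CNS4KO replicate 5 and CNS4Flox replicate 3 (exact adjusted p = 0.0159). Without both libraries the differences were 0.234 for TRBJ2-7 and 0.343 for TRBJ2-1, against 0.187 and 0.280 with them. All 6 genes passed (exact adjusted p = 0.0286, the smallest that 4 against 4 samples allow), as did all 12 TRBJ genes.

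These calls are not particular to the cluster, since 100% of the 12 TRBJ genes passed for counts per clonotype, 100% for distinct clonotypes and 100% for the share of single-count clonotypes. The measures are read from the same counts of the same libraries and depend on each other, so their calls are not separate results. The number of distinct clonotypes of TRBJ2-7 was 2672 ± 236.5 in CNS4KO and 3166 ± 101.4 in CNS4Flox samples, and that of TRBJ2-2 759.7 ± 81.6 and 926.9 ± 70.05 (exact adjusted p = 0.0190 and 0.0238). TRBJ2-3, at 1109 ± 139.7 and 1324 ± 85.2, passed with the largest adjusted p of the 6 genes (0.0346, exact permutation test), and lost the call without any one of CNS4KO replicates 1, 3 and 4 or CNS4Flox replicates 1, 2 and 4 (adjusted p = 0.0571 to 0.0693, differences of -182.3 to -213.2 clonotypes). With adjustment over all measures together the call for TRBJ2-3 was also lost (exact adjusted p = 0.0687), and 8 of the 12 genes passed for distinct clonotypes. Without equal counts, no gene passed for the number of distinct clonotypes (exact adjusted p = 0.495), which rises with depth.

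Clonotypes with a single count made up 76.8% ± 2.54 of TRBJ2-3 clonotypes in CNS4KO samples, against 85.4% ± 1.48 in CNS4Flox samples, the largest gap of the 6 genes (-8.67 percentage points). The smallest gap was that of TRBJ2-2, with 80.1% ± 3.003 in CNS4KO and 87.2% ± 1.75 in CNS4Flox samples. All 6 genes had no overlap between groups and an exact adjusted p of 0.00794, which is also the smallest that 5 against 5 samples allow. Every TRBJ1 gene likewise had no overlap and the same adjusted p. With the pair left out, all 6 genes passed for distinct clonotypes and for the single-count share, with no overlap (exact adjusted p = 0.0286). All 12 TRBJ genes passed for both measures in this setting. The largest gap in single-count share was then that of TRBJ2-4 (-9.60 percentage points, against -9.503 for TRBJ2-3).

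The 20 largest clonotypes of a gene also took more of its counts in CNS4KO samples. For TRBJ2-1 they took 19.4%, 10.4%, 19.2%, 17.7% and 8.68% in CNS4KO replicates 1 to 5, against 4.25%, 7.31%, 9.78%, 5.81% and 5.33% in CNS4Flox replicates 1 to 5. Here 4 CNS4KO libraries lie above all CNS4Flox libraries and CNS4KO replicate 5 lies below CNS4Flox replicate 3 (exact adjusted p = 0.0190). TRBJ2-5 gave 10.8% ± 3.61 in CNS4KO and 4.76% ± 1.08 in CNS4Flox samples, and TRBJ2-7, the gene with the most clonotypes, 7.46% ± 2.35 and 3.53% ± 1.15. The share of TRBJ2-2 was 26.1% in CNS4KO replicate 2 and 9.20% to 12.5% in the other CNS4KO libraries, against 6.55% to 9.61% in CNS4Flox libraries. All 6 genes passed, as did 91.7% of the 12 TRBJ genes. The call for TRBJ2-1 was lost without CNS4Flox replicate 1, 2 or 5 (exact adjusted p = 0.0529). Without both libraries of the pair TRBJ2-1 gave 16.7% ± 4.24 in CNS4KO and 5.675% ± 1.27 in CNS4Flox samples (n = 4 each), with no overlap, and TRBJ2-7 gave 8.30% ± 1.65 and 3.03% ± 0.281. All 6 genes passed without the pair (exact adjusted p = 0.0286), as did all 12 TRBJ genes.

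Set against the mean of the other 11 genes in the same library, TRBJ2-1 had more counts per clonotype (by 0.0574 ± 0.0584, in 9 of 10 libraries, adjusted p = 0.0156) and TRBJ2-7 fewer (-0.0382 ± 0.0492, lower in 10 of 10, adjusted p = 0.0117; exact sign-flip permutation test), and 25% of the 12 genes passed. The call for TRBJ2-1 was lost without both libraries of the pair (0.0578, adjusted p = 0.0625, exact sign-flip permutation test), with 8 libraries left. The other 4 TRBJ2 genes did not pass.

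The largest clonotype of each gene over all libraries was found in a CNS4KO library, and none of their 6 nucleotide sequences was found in a second library. They are printed to show what an expanded junction of each gene looks like, 5′ to 3′ through the CDR3, with bases of the J gene in capitals.

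TRBV1 with TRBJ2-1: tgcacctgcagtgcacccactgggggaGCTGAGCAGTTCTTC
TRBV2 with TRBJ2-5: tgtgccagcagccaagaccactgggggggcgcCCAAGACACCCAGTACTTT
TRBV30 with TRBJ2-7: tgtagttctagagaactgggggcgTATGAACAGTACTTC
TRBV29 with TRBJ2-4: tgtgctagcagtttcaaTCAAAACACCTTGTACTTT
TRBV31 with TRBJ2-3: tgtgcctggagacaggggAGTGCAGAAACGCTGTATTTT
TRBV19 with TRBJ2-2: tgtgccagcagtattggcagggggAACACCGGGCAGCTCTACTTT

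The TRBJ2-1 clonotype had 366 counts in CNS4KO replicate 4, which were 1.05% of its TRB counts (95% Wilson interval 0.950% to 1.16%) and 9.36% of its TRBJ2-1 counts. CNS4KO replicate 3 held the TRBJ2-5 clonotype, with 240 counts (0.955%, 0.842% to 1.08%), the TRBJ2-7 clonotype, with 202 counts (0.804%, 0.700% to 0.922%), and the TRBJ2-4 clonotype, with 94 counts (0.374%, 0.306% to 0.457%). The TRBJ2-3 clonotype had 69 counts in CNS4KO replicate 4 (0.198%, 0.157% to 0.251%) and the TRBJ2-2 clonotype 67 in CNS4KO replicate 2 (0.349%, 0.275% to 0.443%). Only the TRBJ2-3 junction of these 6 kept its whole J stretch, and the TRBJ2-1 junction kept 15 of 22 bases.

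The largest count of a gene varied widely within both groups. For TRBJ2-1 it was 158, 57, 250, 366 and 50 in CNS4KO replicates 1 to 5, against 8, 72, 137, 17 and 10 in CNS4Flox replicates 1 to 5. For TRBJ2-7 it was 42, 72, 202, 98 and 39 in CNS4KO replicates 1 to 5, against 12, 18, 63, 12 and 14 in CNS4Flox replicates 1 to 5. The groups overlap for both genes.

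Most TRBJ2 receptors were found in a single library. Of 111641 TRBJ2 amino acid clonotypes (V gene, J gene and CDR3 residues), 89.2% occurred in 1 library, 518 in 5 or more and 2 in all 10. TRBJ2-7 had 228 of the 518 and TRBJ2-2 had 15. Over the 8 libraries other than the pair, a selection made after the data were seen, 91.1% of 86896 clonotypes occurred in 1 library, 191 in 5 or more and 3 in all 8, and TRBJ2-7 had 85 of the 191 and TRBJ2-2 had 5. At equal TRB counts, 24.5% ± 1.14 of the TRBJ2-7 clonotypes of a library were found in any of the other 9, 21.5% ± 1.16 of TRBJ2-4, 19.7% ± 1.52 of TRBJ2-5, 17.5% ± 1.28 of TRBJ2-3, 16.2% ± 1.36 of TRBJ2-1 and 15.4% ± 1.49 of TRBJ2-2 (SD, 10 libraries). Against the other 11 genes, TRBJ2-7, TRBJ2-4 and TRBJ2-5 were higher and TRBJ2-1 and TRBJ2-2 lower (adjusted p = 0.00234 each, exact sign-flip permutation test), and 83.3% of the 12 genes passed. With the pair left out, the shares were lower and in the same order, from 20.8% ± 1.065 for TRBJ2-7 to 12.5% ± 0.809 for TRBJ2-2, and the same 5 genes passed in the same directions (exact adjusted p = 0.009375 each, 8 libraries).

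That order did not hold once the genes were given equal numbers of clonotypes, an alternative chosen after the data were seen. With 373 amino acid clonotypes drawn for every gene and library, TRBJ2-2 was the highest of the 6 genes, at 8.07% ± 0.755. TRBJ2-7 was the lowest, at 5.04% ± 0.257. Equal counts give a gene with more clonotypes more chances of a match. Equal draws take a smaller part of such a gene, so that a shared clonotype is less often drawn in 2 libraries. Neither rule sets the number of clonotypes aside, and which gene shares more for its size was not tested. With equal draws, TRBJ2-7, TRBJ2-5 and TRBJ2-4 lay under the mean of the other genes in 10 of 10 libraries, the reverse of equal counts. Their differences were -3.28, -2.88 and -1.505 percentage points (exact adjusted p = 0.00293 each). TRBJ2-3, which had not passed at equal counts, was lower as well (-1.15 percentage points, higher in 1 of 10 libraries, exact adjusted p = 0.00469). TRBJ2-1 was lower under both rules (-2.02 and, with equal clonotypes, -3.24 percentage points), and TRBJ2-2 no longer differed from the mean by the test (0.0204, exact adjusted p = 0.938). Without both libraries of the pair TRBJ2-2 was again the highest, at 6.25% ± 0.590, but TRBJ2-1, at 3.92% ± 0.436, was the lowest, beside 4.05% ± 0.202 for TRBJ2-7.

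**Figure D5:**
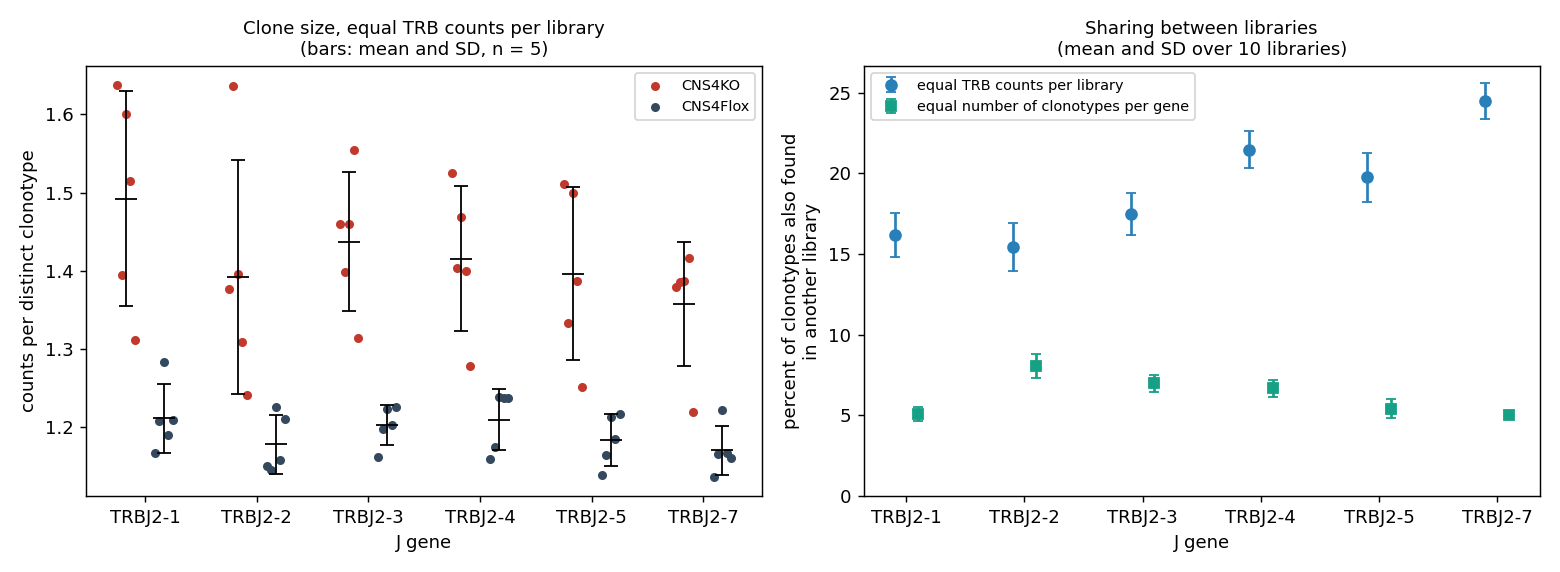
Left, counts per distinct clonotype (y axis, not starting at 0) by TRBJ2 gene at 19183 TRB counts per library; points are libraries, CNS4KO left of CNS4Flox, bars mean and SD over 5. Right, percent of amino acid clonotypes of a library also found in another (mean and SD over 10 libraries) at equal TRB counts per library (circles) and at 373 clonotypes per gene (squares): TRBJ2-7 is highest in the circles, at 24.5%, and lowest in the squares, at 5.04%.

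Between the groups, the share of TRBJ2-7 clonotypes found elsewhere was 25.3%, 25.7%, 25.0%, 25.1% and 25.9% in CNS4KO replicates 1 to 5, against 23.2%, 22.6%, 24.5%, 23.4% and 23.9% in CNS4Flox replicates 1 to 5. The groups do not overlap, but the adjusted p was 0.0952 (exact permutation test) and 0% of the 12 genes passed. With 373 clonotypes per gene the means were 5.15% ± 0.336 in CNS4KO and 4.94% ± 0.0856 in CNS4Flox samples, which overlap in their spread (exact adjusted p = 0.381). At equal counts without the pair, TRBJ2-7 gave 21.8% ± 0.345 in CNS4KO and 19.9% ± 0.274 in CNS4Flox samples, again with no overlap and no call (exact adjusted p = 0.137).

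Receptors found in more libraries carried fewer inserted bases. Over the 6 genes, entries of clonotypes found in 1 library had 3.81 ± 0.0454 inserted bases, those in 2 libraries 2.51 ± 0.0678, those in 3 to 4 libraries 2.09 ± 0.0359 and those in 5 to 10 libraries 1.86 ± 0.0575 (SD over 10 libraries). The order of the means was the same in each of the 6 genes, with TRBJ2-7 at 3.98 for 1 library and 2.04 for 5 to 10, and TRBJ2-2 at 3.37 and 1.65. The 2 widest classes of TRBJ2-2 do not differ beyond their spread (1.77 ± 0.146 for 3 to 4 libraries, 1.65 ± 0.358 for 5 to 10, with 93 entries). Without both libraries of the pair, again a selection made after the data were seen, the values were 3.75 ± 0.0506, 2.41 ± 0.0227, 2.04 ± 0.0398 and, for 5 to 8 libraries, 1.78 ± 0.0955, with the same order of means in each gene. TRBJ2-2 then had 30 entries in the widest class (1.55 ± 0.413, against 1.87 ± 0.211 for 3 to 4 libraries). CDR3 length moved less evenly. TRBJ2-5 receptors had 13.88 residues for 1 library and 12.75 for 5 to 10, and TRBJ2-7 receptors 13.37 and 12.77. TRBJ2-1 receptors had 14.15 for 1 library, 13.59 for 3 to 4 and 13.92 for 5 to 10, and TRBJ2-2 receptors 14.46 for 1 library and 14.17 for 5 to 10. In these 2 genes the widest class was not the shortest, as without the pair (14.02 and 14.36 for 5 to 8 libraries). TRBJ2-4 receptors hardly differed between the 2 widest classes, with 13.32 ± 0.0645 for 3 to 4 libraries and 13.33 ± 0.0673 for 5 to 10. The shared receptors were reached by more nucleotide sequences, 5.16 per amino acid clonotype in the widest class and 1.01 in the narrowest, a number with more chances to grow the more libraries hold a clonotype.

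The 5 TRBJ2 clonotypes found in the most libraries are printed with their most common nucleotide sequence, to set their junctions beside those of the expanded clonotypes; capitals again mark the J gene.

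TRBV31 with TRBJ2-5: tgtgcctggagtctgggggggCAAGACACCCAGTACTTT
TRBV26 with TRBJ2-7: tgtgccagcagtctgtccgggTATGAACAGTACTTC
TRBV31 with TRBJ2-3: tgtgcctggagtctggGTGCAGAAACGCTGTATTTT
TRBV31 with TRBJ2-7, shared: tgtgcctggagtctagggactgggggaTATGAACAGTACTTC
TRBV12-1 with TRBJ2-7: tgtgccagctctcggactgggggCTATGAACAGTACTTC

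By the tables' positions, which may count them too high, these sequences had 1 or 2 inserted bases. The TRBV31 receptor with TRBJ2-5 and the TRBV26 receptor with TRBJ2-7 were in all 10 libraries, through 12 and 10 nucleotide sequences, and the other 3 were in 9. The TRBV31 and TRBJ2-5 receptor had 8, 1, 2, 8 and 4 counts in CNS4KO replicates 1 to 5, against 3, 2, 3, 4 and 1 in CNS4Flox replicates 1 to 5. The TRBV26 and TRBJ2-7 receptor had 6, 4, 1, 3 and 1 in CNS4KO replicates, against 2, 2, 1, 1 and 3 in CNS4Flox replicates. Such receptors were therefore shared but rare, and the groups overlap for both.

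edgeR's quasi-likelihood test on the 666 amino acid clonotypes found in at least 5 libraries called none between the groups (0%, lowest adjusted p 0.300). Its unadjusted p was under 0.05 for 27 of the 518 TRBJ2 clonotypes among them and for 37 of all 666. DESeq2 called 0 as well. The 518 TRBJ2 clonotypes had a median of 9 counts over the 10 libraries. The TRBV12-1 and TRBJ2-7 receptor had 22 counts in CNS4KO and 6 in CNS4Flox samples (log2 fold change 1.70, edgeR adjusted p = 0.920).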

How the data were processed

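Deposited tables list the clonotypes of each library. Per the file headers they hold a whole-number count, the fraction of the library that this count makes, CDR3 sequences, V, D and J names and the positions of the V, D and J matches. Per the labels' protocols, RNA was reverse transcribed with TCR primers and a template switch adapter, amplified in a pair of PCR steps and sequenced on a NovaSeq; mm10 is named in the submitters' processing notes, and aligner and clonotype caller are not given in the sources used here. Counts were used as deposited, and the deposited fraction served only to check them.

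TRBJ1-1 to TRBJ1-5 were taken by name and CDR3 end, and TRBJ1-6 by its end under the name TRBJ2-5. Bases of J kept are the CDR3 length minus the deposited J start; bases trimmed are the untrimmed length minus these. TRBJ1-6 has no J position of its own, so 11 rather than 12 genes were tested for kept, trimmed and inserted bases. Negative gaps between matches (368 entries) were set to 0 inserted bases; 3.33% of entries had no D call. Usage, V-J pairs (at least 10 clonotypes in at least 5 libraries) and amino acid clonotypes (in at least 5 libraries) were tested with edgeR 4.0.16 (quasi-likelihood, TRB total as library size, no TMM), with DESeq2 1.42.0 as an alternative. Single values were tested with two-sided exact permutation tests over 252 assignments of libraries or 1024 sign flips, with Benjamini-Hochberg adjustment over genes within a measure at a threshold of 0.05. Scripts were tested on simulated data. R 4.3.3 ran the count tests; Python 3.11.15 ran the rest, with scipy 1.17.1, pandas 2.3.3, numpy 2.4.6 and, for plots, matplotlib 3.10.9.

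Named are all 6 genes in every measure, the 2 TRBJ2 V-J pairs with the smallest p if none passed, the TRBV with the highest and lowest observed over expected per gene among those with at least 10 expected clonotypes in each library, the largest clonotype per gene, the 5 clonotypes in the most libraries and the nearest gene by V profile. Members, lists and alternatives were chosen with earlier results of these data known.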

Additional observations from a re-analysis of the deposited data

Results flagged for a closer look

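In 5 of 132 groups of 5 libraries, 1 library lay so far from the others that its gap to the nearest, divided by the range of the group, exceeded Dixon's 95% critical value of 0.71. Chance flags about 1 in 20 groups. TRBJ2-2 clonotypes of CNS4KO replicate 2 had 26.1% of their counts in the 20 largest clonotypes, against 9.20% to 12.5% in the other CNS4KO libraries. TRBJ2-7 had 1.22 counts per clonotype in CNS4KO replicate 5, against 1.38 to 1.42 in the others. The 20 largest TRBJ2-7 clonotypes held 5.53% of counts in CNS4Flox replicate 3, against 2.64% to 3.27% in the others. These last 2 libraries are the pair that shared 557 nucleotide clonotypes, and the part of that sharing in their values was not tested. TRBJ2-4 took 12.2% of TRB clonotypes in CNS4KO replicate 2, against 11.5% to 11.6% in the others. TRBJ2-5 kept 17.9 J bases in CNS4Flox replicate 3, at 17.88, against 17.95 to 17.97 in the others.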

How the results depend on the processing

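No paired analysis was possible because replicate numbers follow the order of samples and pair none of them. Of 269 recomputed counts of TRBJ2 genes, pairs or clonotypes past the threshold, 261 stayed within 1.5 times the reported one. With TMM factors 1 TRBJ2 V-J pair passed, and leaving out single libraries gave 0 to 1. Without thinning, 0 TRBJ2 genes passed for distinct clonotypes and 1, TRBJ2-7, for the share found in other libraries. Adjustment over all measures together also called TRBJ2-7 there, and TRBJ1-3 with it, so that 2 of the 12 TRBJ genes passed. It lost TRBJ2-3 for distinct clonotypes (exact adjusted p = 0.0687), where 8 rather than 12 of the 12 TRBJ genes passed. For the share found in other libraries, leaving out single libraries called 0 to 1 TRBJ2 genes. Without both libraries of the pair, 1 gene rather than 2 passed for counts per clonotype against the other genes. The cause was not tested in these cases, except that unequal depth enters the unthinned values directly. With equal numbers of clonotypes per gene, the difference in shared share turned to 0.0204 for TRBJ2-2, -1.505 for TRBJ2-4, -2.88 for TRBJ2-5 and -3.28 for TRBJ2-7. That rule draws a smaller part of a gene that has more clonotypes. Usage log2 fold changes near 0 changed sign. By clonotypes, DESeq2 gave -0.0015 for TRBJ2-1 and -0.0067 for TRBJ2-7, and TMM -0.00052 for TRBJ2-7; leaving out single libraries gave -0.010 to 0.020 for TRBJ2-1, -0.048 to 0.018 for TRBJ2-3 and -0.026 to 0.027 for TRBJ2-7. By counts, leaving out single libraries gave -0.15 to 0.023 for TRBJ2-2, -0.032 to 0.030 for TRBJ2-3 and -0.075 to 0.0020 for TRBJ2-7. None of these passed the threshold. What depth limits was not tested.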

Other observations

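The base just before the J gene was read in entries with a whole J and compared with entries whose J was trimmed, a measure chosen after the data were seen. Palindromic additions, which copy the complement of a gene's first base when a hairpin end is opened off centre, can occur only at an untrimmed end. In TRBJ2-3, the base before an untrimmed J was the complement of the first J base in 65.8% ± 2.07 of clonotypes, and before a trimmed J the same base stood in 10.7% ± 1.26 (SD, 10 libraries). TRBJ2-5 gave 65.2% ± 1.60 against 16.6% ± 1.33, TRBJ2-4 gave 56.0% ± 1.87 against 10.4% ± 0.784, TRBJ2-1 gave 39.6% ± 3.45 against 14.0% ± 0.729 and TRBJ2-7 gave 62.8% ± 1.31 against 47.4% ± 1.33, each higher in 10 of 10 libraries. TRBJ2-2 went the other way, at 55.3% ± 2.07 against 61.5% ± 2.03, higher in 0 of 10. So did TRBJ1-1 (-4.575 ± 3.26 percentage points) and TRBJ1-2 (-6.96 ± 4.36), which also start with C, each higher in 0 of 10. TRBJ1-3, TRBJ1-4 and TRBJ1-5 were higher in 10 of 10. Each of the 11 genes measured had an adjusted p of 0.00195 in the exact sign-flip permutation test. TRBJ2-2 and TRBJ2-7 start with C, whose complement G is also the main base of both D genes, and a trimmed J cannot by construction be preceded by the base that its own gene holds there, so the comparison is uneven between genes. Whether palindromic additions account for these values was not tested. Untrimmed values were close in the groups, for example 65.3% in CNS4KO and 66.2% in CNS4Flox samples for TRBJ2-3.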
